A study of Mus musculus with 17 samples.

Results

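Actin remodelling genes of motile cells were described in the infarct zone (IZ) of the mouse heart 5 days after myocardial infarction (MI). The set was chosen by gene symbol and held 10 genes of the 31647 features in the count table, namely Actb, Actg1, Tmsb4x, Tmsb10, Pfn1, Cfl1, Cotl1, Lcp1, Arpc1b and Coro1a. All samples came from wild-type male C57BL/6J mice that were 8 to 11 weeks old at surgery. The 9 IZ samples were taken after the left anterior descending artery had been tied off for good, and the 8 sham samples were left ventricle of mice that had the same operation without ligation. Each sample was a separate mouse and a piece of whole tissue, in which fewer cells of a type and less RNA per cell cannot be told apart. RNA was read by massive analysis of cDNA ends (MACE), which sequences a tag from the 3' end of polyadenylated transcripts.

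Actin is a small protein that exists as free monomers and as filaments, and cells move, engulf particles and change shape by growing filaments at one place and taking them apart at another. Thymosins and profilin hold and deliver monomers, the Arp2/3 complex starts branches on existing filaments, plastins tie filaments into bundles, and cofilin and coronin help to disassemble them. In the heart, cardiomyocytes fill their sarcomeres with the alpha-actins encoded by Actc1 and Acta1, whereas the cytoplasmic actins encoded by Actb and Actg1 serve leukocytes, fibroblasts and endothelial cells. Lcp1 and Coro1a are best known from blood-derived cells, and Actb is widely used as a reference gene in PCR.

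Promoter sequences of these genes are shown because actin genes are textbook targets of serum response factor (SRF), which binds the CArG box, and because leukocyte genes often carry sites for the myeloid factor PU.1. RefSeq promoter windows of 300 bases, from 250 before to 50 after an annotated start, were at hand for 8 of the 10 genes on GRCm38.p6, as 12 windows. The gene on which a CArG box was found was Actg1, at chr11:120348446-120348745 on the minus strand, with the box in capitals. The gene on which the sequence GAGGAAGT, a form of the PU.1 site, was found was Arpc1b, at chr5:145114006-145114305 on the plus strand, with that sequence in capitals.
Actg1: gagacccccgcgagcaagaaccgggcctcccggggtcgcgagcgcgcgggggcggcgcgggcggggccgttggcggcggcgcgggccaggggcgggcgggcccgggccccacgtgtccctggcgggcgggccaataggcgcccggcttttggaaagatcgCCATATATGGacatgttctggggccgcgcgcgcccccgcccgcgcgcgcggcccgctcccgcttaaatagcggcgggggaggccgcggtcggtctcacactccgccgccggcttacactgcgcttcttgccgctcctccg
Arpc1b: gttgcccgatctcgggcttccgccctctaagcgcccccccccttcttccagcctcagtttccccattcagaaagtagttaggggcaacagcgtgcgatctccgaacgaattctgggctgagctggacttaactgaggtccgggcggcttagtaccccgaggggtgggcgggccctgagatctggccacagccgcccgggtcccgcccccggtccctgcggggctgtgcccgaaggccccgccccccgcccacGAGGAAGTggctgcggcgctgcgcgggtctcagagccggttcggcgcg
The Actg1 box CCATATATGG lay from -90 to -81, counted from the first transcribed base as 0, and the Arpc1b sequence lay from 2 to 9 on the same count. Searched on both strands, a CArG box was held by 1 of the 12 windows and by 1.63% of all 32851 mouse windows of the same length. GAGGAAGT was held by 1 of the 12 windows and by 3.20% of all windows. TATAAA was held by 0 of the 12 windows and by 13.6% of all windows, and GGGCGG, the core of the Sp1 site, by 11 of the 12 and by 35.7% of all. These are matches of letters and not measured binding, and Actb and Cotl1 had no window in the table used. Tmsb10, Lcp1 and Coro1a had more than 1 window each, and those of Tmsb10 overlapped in part, so the 12 windows are not independent.

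Total counts per library ran from 1237675 to 4738307. Levels are given as CPM, counts relative to library sizes scaled by the trimmed mean of M values (TMM), and since MACE yields a single tag per transcript molecule, CPM was not divided by transcript length. IZ replicate 1 stood apart from the other IZ libraries. Its mitochondrially encoded features held 19.5% of the counts against 4.22 to 6.78% in the other 8 IZ libraries and 22.9 to 32.4% in sham. Its 10 cardiomyocyte markers summed to 34269 CPM, the highest sum of the IZ, against 76883 to 102236 CPM in sham. It was kept in the comparisons, and values without it are given beside them.

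All 10 genes were higher in the IZ than in sham, and for each of them every IZ library, replicate 1 included, lay above every sham library. By the edgeR quasi-likelihood test with Benjamini-Hochberg adjustment over 12301 genes, the log2 fold changes ran from 1.34 for Pfn1 to 3.62 for Cotl1, with a median of 2.35 against 0.05 over all genes tested. These counts stand against a broad change of the tissue. Of all genes tested 69.5% were called, 36.3% as higher and 33.1% as lower, and 16.6% had every IZ library above every sham library. Among the 12301 genes ranked by log2 fold change, the 10 genes lay between rank 188 and rank 1703. Without IZ replicate 1 the log2 fold changes ran from 1.37 to 3.72.

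**Figure D1:**
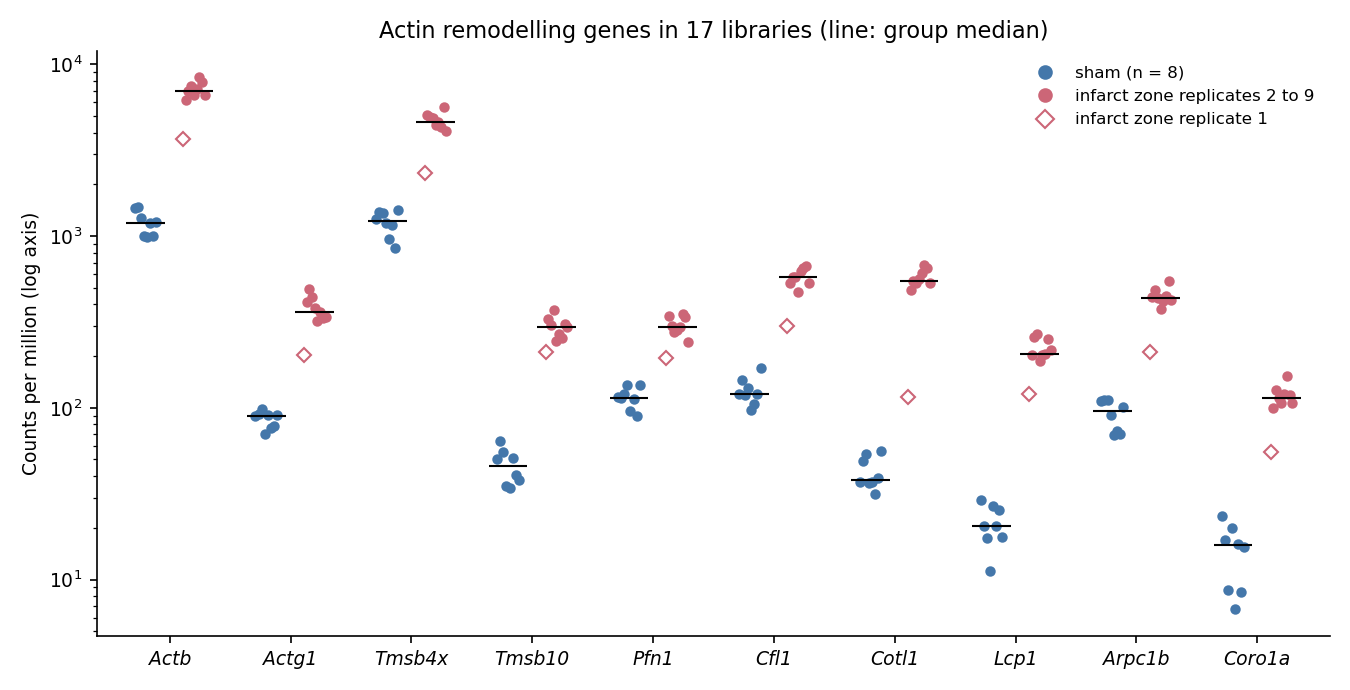
CPM of the 10 genes on a log axis, with a point for each library of sham and IZ and a line at the group median. For each gene the 9 IZ points lie above the 8 sham points, and the open diamond, IZ replicate 1, lies lowest in the IZ, at 115 CPM for Cotl1 against 484 CPM for the next library.

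The cytoplasmic actins form the filament itself. Actb, which encodes beta-actin, had 981, 1195 and 1477 CPM in sham (lowest, median and highest library) and 3662, 7033 and 8397 CPM in the IZ. The lowest IZ value was that of replicate 1, the next was 6178 CPM, and the groups did not overlap. The log2 fold change was 2.50 (SE 0.20, adjusted p = 2.63e-10, edgeR), or 5.67-fold. Actg1, which encodes gamma-actin, had 70.8, 89.9 and 98.2 CPM in sham and 202, 363 and 493 CPM in the IZ. It too separated the groups in all libraries, with a log2 fold change of 2.09 (SE 0.15, adjusted p = 3.46e-11, edgeR). Annotated near-identical copies with rows in the table held under 1% of the counts of Actb and of Actg1, namely 0.0484% and 0.753% in sham. The copy Gm12715 matches the last 500 bases of Actg1 at 100% identity. Since the handling of reads with several locations was not given, the level of Actg1 and its share beside Actb are uncertain. Whether reads of Actg1 were lost by such matches was not tested.

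Thymosins are short peptides that bind actin monomers and keep them from polymerizing. Tmsb4x had 855, 1229 and 1424 CPM in sham and 2333, 4596 and 5632 CPM in the IZ. In sham its mean of 1198 ± 203 CPM (SD, n = 8) equalled that of Actb, 1198 ± 199 CPM, and Actb was the higher in 5 of the 8 libraries. In the IZ, Actb was the higher in 9 of 9 libraries, with means of 6795 ± 1357 and 4472 ± 923 CPM (SD, n = 9). The log2 fold change of Tmsb4x was 1.90 (SE 0.19, adjusted p = 8.5e-09, edgeR). Tmsb10 had 34.2, 45.6 and 63.8 CPM in sham and 210.2, 296 and 370.4 CPM in the IZ, with a log2 fold change of 2.65 (SE 0.15, adjusted p = 1.53e-12, edgeR). The groups did not overlap for either thymosin.

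The level of Tmsb10 is uncertain because its 3' end is nearly the same as that of several processed copies. Copies in the table held counts equal to 106% of those of Tmsb10 in sham and 97.0% in the IZ, most of them on Gm9844, which matches 466 bases of the Tmsb10 end at 99.1% identity. With the counts of its copies added, the level of Tmsb10 was 95.1 ± 20.8 CPM over 8 sham libraries (SD) and 570.1 ± 86.5 CPM over 9 IZ libraries, and its log2 fold change was 2.59 (SE 0.15, adjusted p = 1.92e-12, edgeR). The fold change was thus similar with and without the copies, while the level differed. Whether the counts of the copies came from Tmsb10 transcripts was not tested.

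Profilin loads monomers onto growing filament ends, and cofilin severs old filaments. Pfn1 had 89.4, 115 and 137 CPM in sham and 196, 296 and 352 CPM in the IZ. It had the lowest log2 fold change of the 10 genes, 1.34 (SE 0.13, adjusted p = 4.55e-09, edgeR), and its groups still did not overlap. Cfl1, the non-muscle cofilin, had 96.8, 120.4 and 170.0 CPM in sham and 299.7, 575 and 669.7 CPM in the IZ, which gave a log2 fold change of 2.12 (SE 0.16, adjusted p = 6.79e-11, edgeR). Snx32 overlaps Cfl1 on the other strand, and its 179 counts in all libraries together compare with 19452 for Cfl1.

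Cotl1 encodes coactosin-like protein, an actin-binding relative of cofilin that also binds 5-lipoxygenase. It had 31.6, 38.1 and 56.1 CPM in sham and 115, 547 and 677 CPM in the IZ. Its log2 fold change of 3.62 (SE 0.25, adjusted p = 2.95e-11, edgeR) was the largest of the 10 genes, or 12.3-fold. Cotl1 also varied most among IZ libraries, with a coefficient of variation of 31.5%, which came to 11.4% without replicate 1. In that library Cotl1 held 1.55% of the counts of the 10 genes, within the 1.12 to 1.72% of sham, whereas Lcp1 held 1.63%, above the 1.12% of the highest sham library.

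The last 3 genes act on filament networks. Arpc1b, a subunit of the Arp2/3 complex that is prominent in blood cells, had 69.4, 95.4 and 111 CPM in sham and 211, 435 and 547 CPM in the IZ (log2 fold change 2.20, SE 0.17, adjusted p = 1.03e-10, edgeR). Lcp1, which encodes the filament-bundling L-plastin, had 11.2, 20.5 and 29.0 CPM in sham and 121, 205 and 270.0 CPM in the IZ (log2 fold change 3.32, SE 0.18, adjusted p = 9.13e-13, edgeR). Coro1a, the coronin of leukocytes, had 6.73, 15.9 and 23.5 CPM in sham and 55.4, 114 and 152 CPM in the IZ (log2 fold change 2.94, SE 0.22, adjusted p = 7.05e-11, edgeR). For none of the 3 did the groups overlap. Coro1a had the fewest counts behind its values, 11 to 43 per sham library and 153 to 768 per IZ library, and the largest coefficient of variation in sham, 41.4%. Pdap1 overlaps Arpc1b and Bola2 overlaps Coro1a on the other strand, with 1937 and 2798 counts in all against 15101 and 3763 for the described genes, and whether the counting used strand was not given in the sources used here.

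Together the 10 genes held 0.142 to 0.240% of all counts in sham and 0.771 to 2.36% in the IZ. The means were 0.198 ± 0.0380% (SD, n = 8) and 2.01 ± 0.494% (SD, n = 9), and the lowest IZ share outside replicate 1 was 1.87%. Of the counts outside mitochondrially encoded features they held 0.272% in sham and 2.14% in the IZ. Actb and Tmsb4x made up most of this sum in both groups. Within the sum, Actb took 40.8 ± 2.75% in sham and 48.5 ± 2.51% in the IZ, with 8 of 9 IZ libraries above every sham library. Tmsb4x took 40.7 ± 2.49% in sham and 31.9 ± 2.36% in the IZ, and Pfn1 3.95 ± 0.519% and 2.11 ± 0.280%, and for both genes 9 of 9 IZ libraries lay below every sham library. Arpc1b held 3.11 ± 0.273% and 2.98 ± 0.209% of the sum, with every IZ library within the range of sham.

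The order of levels was Actb, Tmsb4x, Cfl1, Pfn1, Arpc1b, Actg1, Tmsb10, Cotl1, Lcp1 and Coro1a in sham. The neighbours Actb and Tmsb4x, Cfl1 and Pfn1, Arpc1b and Actg1, and Tmsb10 and Cotl1 were each in this order in 5 of 8 sham libraries only, so their levels did not differ beyond the spread. In the IZ, Cotl1 stood behind Cfl1 at 523 ± 165 CPM (SD, n = 9), and Pfn1 stood behind Actg1. There Cfl1 exceeded Cotl1 in 6 of 9 libraries, Arpc1b exceeded Actg1 in 6 of 9 and Pfn1 exceeded Tmsb10 in 5 of 9, while Lcp1 exceeded Coro1a in 9 of 9. The place of Tmsb10 in both orders is that without its copies. With their counts added its mean was 95.1 CPM in sham, above those of Arpc1b (91.8 CPM) and Actg1 (85.8 CPM). In the IZ it was then 570.1 CPM, above that of Cfl1 (548 CPM).

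Many of these genes have a relative with the same task, often a muscle form, and the share of a family's counts held by the described gene does not depend on the scaling of libraries. There were 8 such shares, each compared by an exact two-sided permutation test with 24310 arrangements of the group labels. Actb and Actg1 held 11.6 ± 2.95% of the counts of the 6 actin genes in sham (SD, n = 8) and 71.1 ± 15.4% in the IZ (SD, n = 9; p = 8.23e-05, adjusted p over the 8 shares = 9.4e-05, exact permutation). IZ replicate 1 had 32.7%, above the 15.3% of the highest sham library but below the 67.6% of the next IZ library. The summed level of the 6 actin genes overlapped between the groups, with 9184 to 14127 CPM in sham and 8757 to 11833 CPM in the IZ. Of the muscle actins, Actc1 fell by 2.12 (SE 0.34, adjusted p = 7.05e-06, edgeR) and Acta1 by 1.80 (SE 0.44, adjusted p = 0.000976, edgeR) on the log2 scale. The smooth muscle actins Acta2 and Actg2 rose by 2.28 and 3.31 on the same scale.

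Cofilin showed a similar exchange. Cfl1 held 29.7 ± 4.99% of the counts of Cfl1 and its muscle form Cfl2 in sham and 85.0 ± 8.48% in the IZ (p = 4.11e-05, the smallest this design allows, adjusted p = 5.48e-05, exact permutation), where Cfl2 fell by 1.72 on the log2 scale (SE 0.16). In IZ replicate 1 the share was 62.9%, against 85.5% or more in the other IZ libraries. Pfn1 held 66.2 ± 7.85% of the profilin counts in sham and 90.8 ± 2.91% in the IZ, and Arpc1b held 64.2 ± 4.10% of the counts of Arpc1a and Arpc1b in sham and 87.1 ± 2.73% in the IZ. Lcp1 held 28.8 ± 6.12% of the counts of the 3 plastins in sham and 62.0 ± 8.45% in the IZ. Coro1a held 21.7 ± 8.11% of the counts of Coro1a, Coro1b and Coro1c in sham and 39.7 ± 3.41% in the IZ. These 4 shares had the same exact permutation p values as that of Cfl1, and in each of them 9 of 9 IZ libraries lay above every sham library. Of the relatives in these 4 shares, Pfn2 fell, whereas Arpc1a was not called and Pls1 was not tested. Pls3, Coro1b and Coro1c rose, Pls3 by 1.34 (SE 0.15) and Coro1c by 1.81 (SE 0.15) on the log2 scale. The shares of Lcp1 and Coro1a were thus higher without a fall of these relatives.

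Shares within the thymosins and within the cytoplasmic actins differed by a few percentage points. Tmsb10 held 3.73 ± 0.719% of the thymosin counts in sham and 6.16 ± 1.03% in the IZ (p = 4.11e-05, adjusted p = 5.48e-05, exact permutation). With its copies added the shares were 7.40 ± 1.20% and 11.5 ± 1.56%, and the difference between IZ and sham was 4.12 percentage points against 2.43 without them. Actb held 93.2 ± 0.913% of the counts of Actb and Actg1 in sham and 94.8 ± 0.907% in the IZ, a difference of 1.62 percentage points (p = 0.00251, adjusted p = 0.00251, exact permutation) with 7 of 9 IZ libraries above every sham library.

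**Figure D2:**
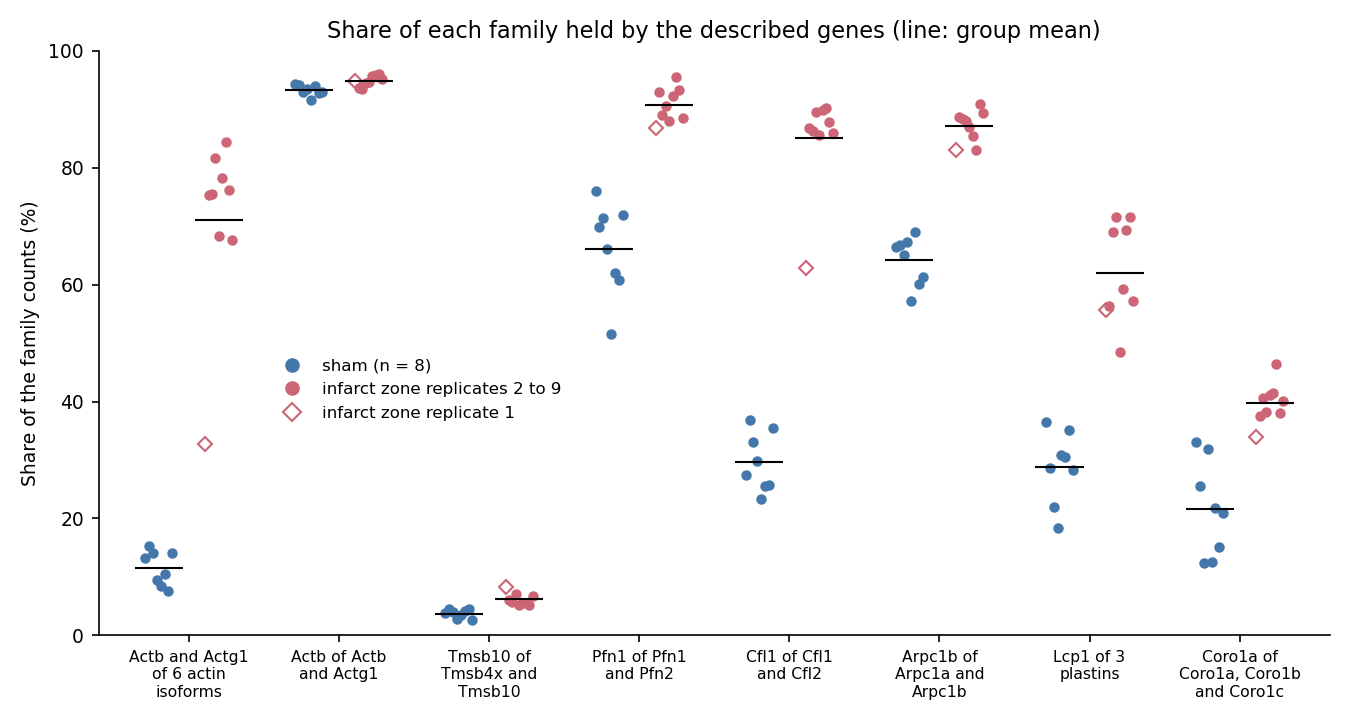
Percent of the counts of a gene family held by the described gene or genes, with a point for each library and a line at the group mean. Most shares separate the groups, as for Cfl1 at 29.7% in sham and 85.0% in the IZ, and IZ replicate 1 (open diamond) is the lowest IZ library for the cytoplasmic actins, Pfn1, Cfl1, Arpc1b and Coro1a and the highest, farthest from sham, for Tmsb10.

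The other genes of the pathway changed in both directions. Of the 10 Arp2/3 complex genes, Arpc1b included, 7 rose, 2 fell and 1 was not called. Among the rest of the complex, Arpc5 rose most (log2 fold change 1.84, SE 0.13), while Actr3b and Arpc5l, alternative forms of subunits, fell by 3.41 (SE 0.31) and 1.36 (SE 0.11) on the log2 scale. The median of the complex was 1.04. Arpc1a, the alternative to Arpc1b, had 51.1 ± 9.60 CPM in sham and 60.7 ± 13.7 CPM in the IZ (log2 fold change 0.24, SE 0.14, adjusted p = 0.121, edgeR). Of 14 activators of the complex that were tested, 9 rose, 2 fell and 3 were not called. Nckap1l, the blood cell form of a WAVE complex subunit, rose by 3.64 (SE 0.22), and Cyfip2, another WAVE complex subunit, fell by 2.54 on the log2 scale (SE 0.23). The lower call of Wasl in that list (log2 fold change -0.30, adjusted p = 0.0467, edgeR) held in 8 of 27 settings, the alternative of total counts alone giving a higher call.

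Of 15 further genes of monomer binding and disassembly, 9 rose, 5 fell and 1 was not called. Cap1 rose by 2.21 (SE 0.23) and its muscle relative Cap2 fell by 2.23 (SE 0.20) on the log2 scale. Of the 13 bundling and crosslinking genes tested beside Lcp1, 11 rose and 2 fell, from Actn1, the non-muscle alpha-actinin (2.90, SE 0.15), to Actn2, the alpha-actinin of the Z-disc (-2.61, SE 0.39). Of the 6 other coronins, 4 rose, 1 fell and 1 was not called, with Coro2a highest (3.87, SE 0.41) and Coro6 lowest (-3.37, SE 0.43). Of the 12 capping and severing genes tested, 4 rose, 5 fell and 3 were not called, and their median log2 fold change was 0.06, close to that of all genes. In this list Capg, a capping protein of macrophages, had 3.60 (SE 0.21), and Lmod3, which builds thin filaments in muscle, had -3.65 (SE 0.46).

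Among formins and Ena/VASP proteins, which lengthen unbranched filaments, 9 of 14 rose, 3 fell and 2 were not called, with Diaph3 at 3.19 (SE 0.49) and the cardiac formin Fhod3 at -3.41 (SE 0.33). Of 16 adhesion and nonmuscle contractile genes, 13 rose and 3 fell, from Tpm4 (1.88, SE 0.14) to Ezr (-0.91, SE 0.14). Of SRF and its 3 cofactors, 1 rose (Mrtfa, 1.46, SE 0.22), 2 fell (Srf, -0.81, SE 0.15, and Myocd, -2.68, SE 0.41) and 1 was not called. With libraries scaled by total counts alone, the median of all genes was 1.14. Of 173 tested genes of the lists, 20 took the other sign, among them Wasl, Ezr and Srf with their smaller falls. That scaling moved log2 fold changes upward, so the 10 described genes, already higher, could not have changed sign by it.

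**Figure D3:**
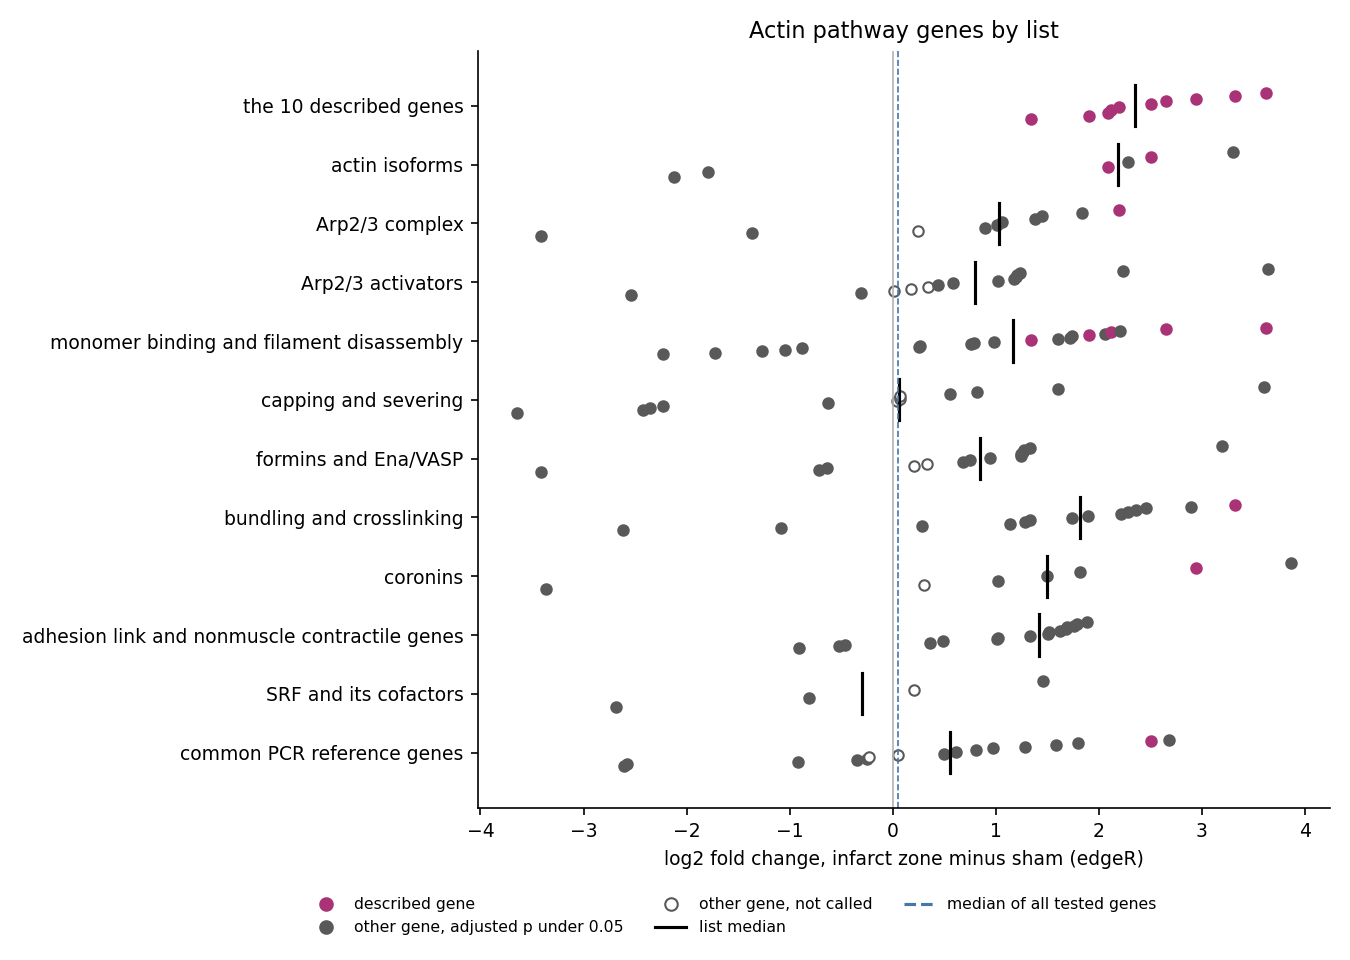
Log2 fold changes (IZ minus sham) of the tested genes of 12 lists, with a point for each gene, a bar at each list median and a dashed line at the median of all tested genes, 0.05. The 10 described genes lie between 1.34 and 3.62, and their median of 2.35 is the highest of the 12 list medians drawn. This rank is no test, since genes and lists were chosen with earlier results of these data known. Described genes also count in other lists, and the median of the actin isoforms is 2.19 with them and 0.24 without them. Lists of cell type markers are not drawn, and the medians of leukocyte markers (3.38) and of fibroblast markers (2.50) were higher.

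Actb was 1 of 16 genes in common use as PCR references that were examined, of which 9 rose, 5 fell and 2 were not called. Its log2 fold change of 2.50 was the largest of these after that of Gusb (2.68, SE 0.19), and Sdha had the lowest (-2.60, SE 0.22). Gapdh fell by 0.92 on the log2 scale (SE 0.17, adjusted p = 3.8e-05, edgeR). Cdkn1b, which was among the PCR references of the study, had -0.25 (SE 0.11, adjusted p = 0.0475, edgeR). That lower call of Cdkn1b held in 8 of 27 settings, total counts alone giving a higher call. Hprt (0.05, SE 0.11, adjusted p = 0.697, edgeR) and Tbp (-0.23, SE 0.21, adjusted p = 0.337, edgeR) were not called. With total counts alone as the scaling, 13 of the 16 were called higher and 2 lower, and Gapdh, Cdkn1b, Tbp and Pgk1 took the other sign. Ratios within a library do not depend on that choice. The log2 ratio of Actb to Hprt was 3.86 ± 0.295 in sham (SD, n = 8) and 6.32 ± 0.432 in the IZ (SD, n = 9), and that of Actb to Cdkn1b was 4.78 ± 0.289 and 7.53 ± 0.509. Relative to Hprt, the differences between IZ and sham ran from 1.30 to 3.47 over the 10 genes, and relative to Gapdh from 2.30 to 4.47. For each of these references and for Tbp, all 10 genes had 9 of 9 IZ libraries above every sham library. None of these references was called higher in the main fit, and they were chosen after their values were seen. Ratios to references that rose, such as Gusb and Eef1a1 (log2 fold change 1.80, SE 0.15), were not computed.

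**Figure D4:**
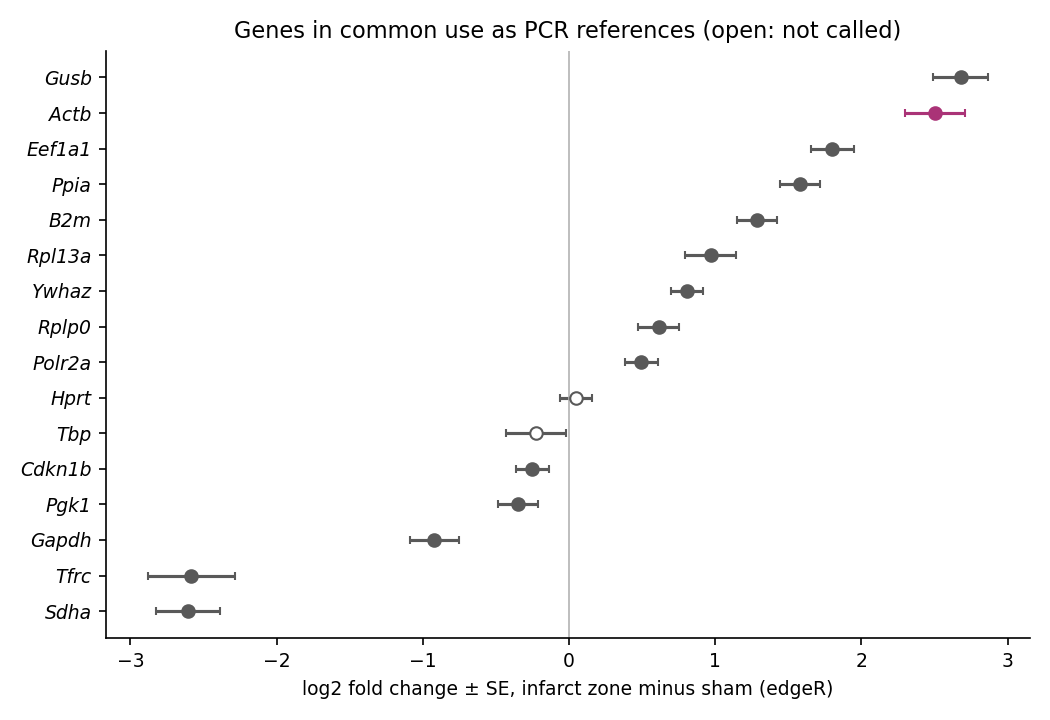
Log2 fold change with its SE (bars) of 16 genes in common use as PCR references, with open points for genes not called by edgeR. Actb, in colour, lies at 2.50, next to Gusb at 2.68 and far from Hprt at 0.05.

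Markers of several cell types moved between the groups along with the described genes. Of 16 leukocyte markers, 13 were tested and all 13 were higher in the IZ, from Csf1r (2.31, SE 0.13) to Cd68 (4.09, SE 0.21), and Cd3e and Cd79a, which define T and B cells, had means under 1 CPM in both groups. The sum of the 15 markers with a row ran from 376 to 561 CPM in sham and from 2224 to 6117 CPM in the IZ, 10.5-fold higher on average, and was lowest in IZ replicate 1. Of 9 fibroblast markers 8 were higher, and their sum ran from 1755 to 3295 CPM in sham and from 13794 to 22549 CPM in the IZ. All 10 cardiomyocyte markers were lower, and outside replicate 1 their sum was as low as 3220 CPM in the IZ. Of 7 endothelial markers 3 were lower and 4 were not called, and of 6 smooth muscle markers 4 were higher and 2 lower. The part of these cells in the higher levels of the 10 genes was not tested. The differences of the described genes, 2.54-fold to 12.3-fold, stand beside a 10.5-fold difference of the leukocyte sum and a 7.71-fold difference of the fibroblast sum. Both sums rested mostly on a few abundant genes. In the IZ, Lyz2 averaged 2742 of the 4544 CPM of the leukocyte sum. Col1a1, Col1a2 and Col3a1 averaged 5641, 4223 and 3947 of the 18663 CPM of the fibroblast sum there. Dcn, the fibroblast marker not called, averaged 864 CPM in sham and 886 CPM in the IZ.

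Whether the described genes followed the leukocyte sum from library to library was examined within each group by an exact two-sided permutation test, which made 20 relations for 10 genes and 2 groups. None passed Benjamini-Hochberg adjustment over the 20, the smallest adjusted p being 0.0640 for Lcp1 and for Arpc1b in the IZ. For Arpc1b in the IZ, Pearson's r was 0.95 (exact permutation p = 0.00445, n = 9) and Spearman's rho 0.52 (exact permutation p = 0.162), and without the 2 libraries farthest from the median r was 0.28. For Lcp1 in the IZ, r was 0.91 (exact permutation p = 0.00640, n = 9) and rho 0.75 (exact permutation p = 0.0255, adjusted p = 0.112), and r was 0.58 without the 2 farthest libraries. For Actb the value of 0.85 in the IZ (exact permutation p = 0.0430) became 0.12 without replicate 1. Every r in the IZ, 0.63 to 0.95 with all libraries, was lower without replicate 1, where r ran from -0.23 to 0.69. Without that library r was 0.69 for Arpc1b (exact permutation p = 0.0627) and 0.62 for Lcp1 (exact permutation p = 0.0993). In sham r ran from -0.28 for Coro1a to 0.76 for Actg1 (exact permutation p = 0.0202, adjusted p = 0.0718).

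**Figure D5:**
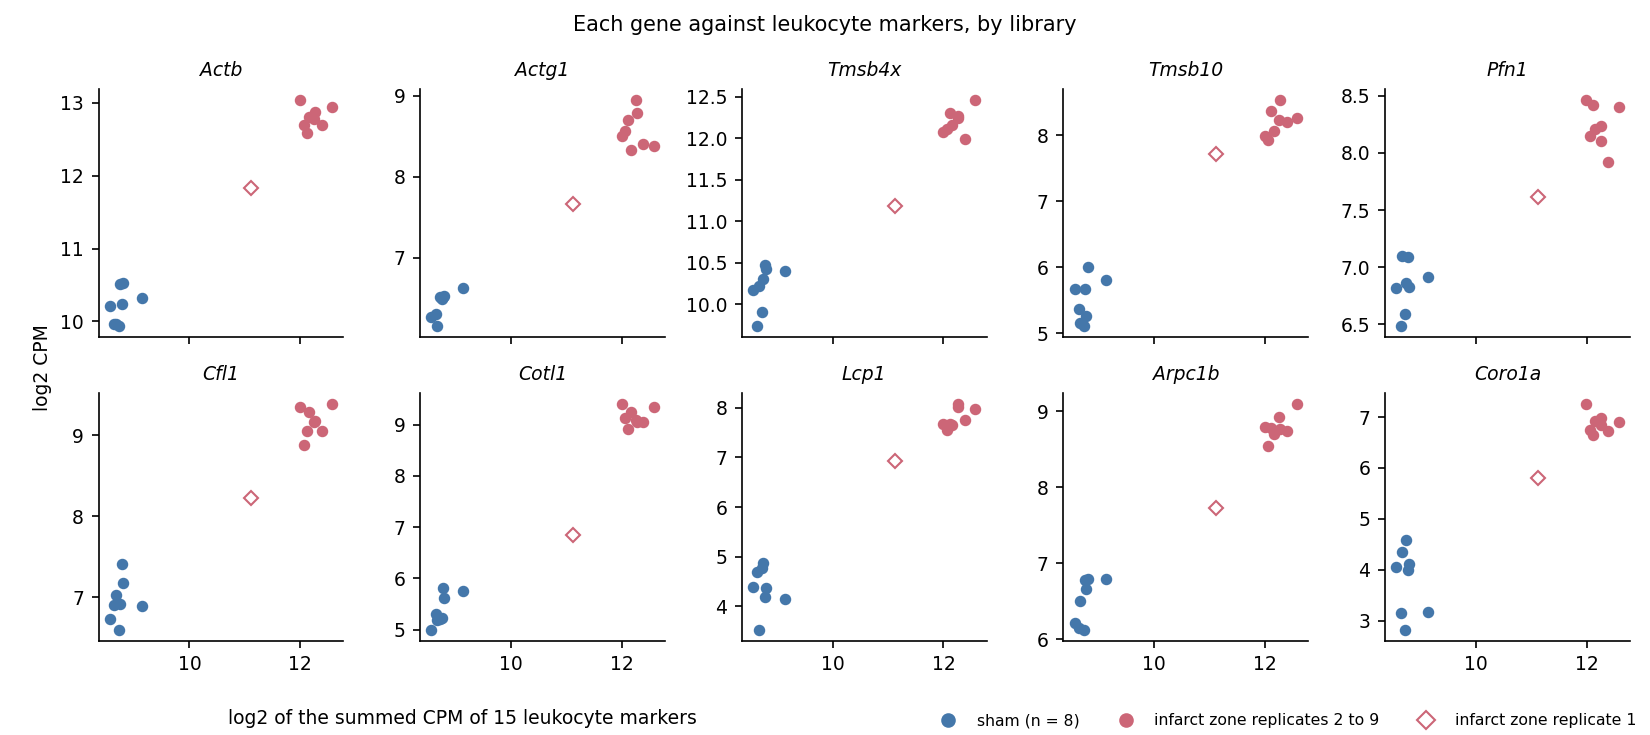
Log2 CPM of each gene against the log2 of the summed CPM of 15 leukocyte markers, with a point for each library. Sham and IZ form separate groups in every panel, and IZ replicate 1 (open diamond) lies between them, apart from the other 8 IZ libraries.

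For each gene the 3 genes with the closest profile over the 17 libraries were found among 2811 genes that averaged 50 CPM or more, by the root mean square difference of log2 CPM after centring each gene on its mean. This measure follows the size of the group difference as well as the spread within groups. The average was taken over both groups, so a gene low in sham could enter by its IZ level alone. Nckap1l, for example, averaged 8.67 CPM in sham and 107.5 CPM in the IZ. How far this filter shaped the neighbours named below was not tested. The nearest genes to Actb were Aif1, a macrophage gene (0.17), Olfml3 (0.19) and Tagln2 (0.19). Cfl1 and Arpc1b were the closest pair of the 45 pairs among the 10 genes (0.19), and Pfn1 and Cotl1 the most distant (1.17). Cfl1 was nearest to Cd63 (0.18), then to Arpc1b (0.19) and Fkbp10 (0.20). Arpc1b had Tmsb4x (0.19) and Cyba, a subunit of the phagocyte oxidase (0.20), after Cfl1. A cell type is named for some of the neighbours only, and which cells the neighbours came from was not tested. Actg1 was nearest to Prelid1 (0.15), Tpm4 (0.19) and Gpx1 (0.20).

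Cotl1, Lcp1 and Coro1a, the described genes with the largest differences, had the most distant neighbours. Distance did not follow the difference among these, since Coro1a, with the smallest difference of them and the fewest counts, had the most distant neighbours. Those of Cotl1 were Fcgr3, an Fc receptor of myeloid cells (0.31), Nckap1l (0.34) and S100a4 (0.35). Those of Lcp1 were Adgre1, which encodes the macrophage antigen F4/80 (0.28), Cybb, the catalytic subunit of the phagocyte oxidase (0.34), and Tcirg1 (0.34), and those of Coro1a were Fxyd5 (0.37), Ctsz (0.38) and Tcirg1 (0.40). For Tmsb4x and Pfn1 the neighbours included genes or gene copies of the translation machinery instead. Tmsb4x was followed by Gm10080 (0.16), the elongation factor gene Eef1a1 (0.17) and Gm5526 (0.17), and Pfn1 by Rps12-ps3, Rps12l1 and Rps12-ps4 (each 0.15), copies of a ribosomal protein gene that may share reads. Tmsb10 was nearest to its own copy Gm9844 (0.16), then to Actb (0.24) and C1qa (0.25), a complement gene of macrophages.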

How the data were processed

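MACE libraries of 8 sham and 9 IZ samples were analysed, with groups taken from the labels. The authors trimmed reads with Cutadapt (version 4.6), mapped them to mm10, removed PCR duplicates by molecular identifiers and counted tags per gene with HTSeq, and the deposited values are raw counts. Bowtie2 is named in the submitters' processing notes, and the handling of strand and of reads with several locations was not given in the sources used here. Gene names came from GENCODE M21, a GRCm38 annotation, which matched 31521 of 31647 features. No pair of libraries was a copy (chi-square per degree of freedom at least 2.56).

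Differential expression was computed by edgeR 4.0.16 under R 4.3.3 (filterByExpr with a minimum of 10 counts, TMM, two-sided quasi-likelihood F-test, no covariates, Benjamini-Hochberg threshold 0.05). SE was the absolute log2 fold change divided by the square root of F. Log2 CPM used a prior count of 1. The fit was tested on simulated data. Copies were sought with BLAST 2.17.0, using the last 500 bases of transcripts and matches of at least 100 bases at 95% identity. Python 3.11.15 with NumPy 2.4.6, pandas 2.3.3, SciPy 1.17.1 and Matplotlib 3.10.9 was used for shares, relations and plots. Precision is limited by the counts per gene given in the text, which cover counting error only. Named genes were the 10 described genes, the highest and the lowest other gene of each list, relatives in the 8 shares and the 3 nearest profiles. Other genes were named after their values were seen, as were the ratios to reference genes. Some genes and a list of the plan are not reported here. The genes and lists were chosen with earlier results of these data known. Alternatives were other scalings, DESeq2 1.42.0, other count filters, thinning, omission of mitochondrial features, a replicate block and omission of each library.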

Additional observations from a re-analysis of the deposited data

Results flagged for a closer look

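In 11 of the 38 sets of values examined, the lowest or highest library lay far from the others by Dixon's criterion, and in all 11 this was IZ replicate 1 as the lowest of 9. Chance would set a library apart in about 1 in 20 sets, and since all sets come from the same libraries they are not independent. On the log2 CPM scale the replicate had 11.84 for Actb against 12.59 to 13.04 in the other IZ libraries, 7.66 for Actg1 against 8.33 to 8.95, and 11.19 for Tmsb4x against 12.00 to 12.46. It had 8.23 for Cfl1 against 8.88 to 9.39, 7.72 for Arpc1b against 8.55 to 9.10, 6.92 for Lcp1 against 7.55 to 8.08, and 5.80 for Coro1a against 6.65 to 7.26. Cotl1 was the most separate of them, with 6.85 against 8.92 to 9.40, a gap of 0.811 of the whole range.

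In the same library Actb and Actg1 held 32.7% of the counts of the 6 actin genes against 67.6 to 84.3% in the other IZ libraries, Cfl1 held 62.9% of the cofilin counts against 85.5 to 90.2%, and the 10 genes held 0.771% of all counts against 1.87 to 2.36%. Its mitochondrial share of 19.5% and its cardiomyocyte marker sum of 34269 CPM were the highest of the IZ, and its leukocyte marker sum of 2224 CPM the lowest. Their part in these values was not tested.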

How the results depend on the processing

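The calls of the 10 genes kept their direction and their side of the threshold under all 26 alternatives run for each (27 for Tmsb10), with log2 fold changes from 1.29 (Pfn1 without sham replicate 7) to 4.73 (Cotl1 with total counts alone). The 8 family shares and the share of all counts did so too. The same replicate numbers occur in both groups but gave correlations of deviations from -0.216 to 0.128 over 8 pairs, of which 1 was over 0.1, so they were not taken as pairs. With the number as a replicate block, all 10 genes were called and 7883 genes in all, against 8153 in the same libraries without it.

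Counts of calls in lists moved in 45 instances, mainly for Arp2/3 activators and reference genes. Scaling by total counts alone gave 1 lower call among Arp2/3 activators, 2 in monomer binding and disassembly, 1 in formins and Ena/VASP, 1 in bundling, 0 in adhesion genes, 1 in SRF cofactors, 0 in smooth muscle markers and 2 in reference genes. Its higher calls came to 8 in capping and severing, 2 in SRF cofactors and 5 in endothelial markers. A minimum mean of 50 counts, which leaves fewer genes tested, gave 1 lower call in the Arp2/3 complex, 1 in its activators, 1 in SRF cofactors and 1 in smooth muscle markers, and 5 higher in formins and Ena/VASP and 3 in coronins. Thinning gave 1 lower call in SRF cofactors. Lower calls among Arp2/3 activators came to 1, without Wasl, under upper quartile scaling, DESeq2, no count filter, thinning and the replicate block, and to 1 to 2 on omission of single libraries. Lower calls among reference genes came to 3 under upper quartile scaling, no count filter and the replicate block, and to 3 to 5 on omission of single libraries. The cause was not tested. With total counts alone as the scaling, 7 relations to leukocyte markers passed adjustment, with r from 0.81 (Arpc1b in sham) to 0.97 (Arpc1b in the IZ). The alternative with the copies of Tmsb10 added and the relations without IZ replicate 1 were chosen after seeing the data.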
